A study of Rattus norvegicus with 6 samples.

Results

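Plat, Plau, Plaur and Serpine2 are 4 genes of pericellular plasminogen activation and its control. Their transcripts were measured in primary cultures labelled as rat cardiac fibroblasts, in which cardiomyocyte markers were also bright. They were taken by symbol, as every probe set whose platform annotation names exactly 1 gene that is in this set. This gave 4 probe sets, 1 for each gene, of the 8740 on the array and of 4736 named genes, so no gene here has a second probe set to set beside the first. All 4 passed the filter on low signals. The cells came from the ventricles of Sprague-Dawley rats aged 1 to 2 days, with the strain of PTX replicate 3 labelled only as SD. Of the 6 cultures, 3 received water and 3 received pertussis toxin (PTX) for 24 h, each read on its own 1-colour Affymetrix array. PTX is a bacterial toxin that modifies the alpha subunits of Gi and Go proteins, so that receptors can no longer signal through them. The labels give no dose. The labels name no other agent and no allele for either group. The labels do not say whether the cultures of a group came from separate cell isolations, so the p-values cover only the spread among these 6 cultures, part or all of which may be technical.

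Plasminogen activators are serine proteases that cut the inactive precursor plasminogen into plasmin, which in turn dissolves fibrin, degrades matrix glycoproteins and activates other proteases and latent growth factors. Plat encodes the tissue-type activator (tPA), whose activity is greatest on fibrin, and Plau the urokinase-type activator (uPA), which Plaur, a receptor tethered to the membrane by a lipid anchor, holds at the cell surface. Serpine2 encodes protease nexin-1, a serpin bound to heparan sulfate in the matrix that traps thrombin, uPA and tPA in inactive complexes. Complexes of serpin and protease are taken up by receptors of the LDL receptor family. In the heart this system takes part in the turnover of matrix after injury.

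The promoter sequences of 3 of the 4 genes are given, since all 4 were looked up and no entry was found for Plat. They come from RefSeq, build GRCr8, and hold the bases upstream of the annotated gene, 5′ to 3′ on the gene's strand. Plau is shown for chr15:3511988-3512237 (minus strand), Plaur for chr1:89181113-89181362 (plus strand) and Serpine2 for chr9:88637253-88637452 (minus strand). Capitals mark matches on either strand to the GC box GGGCGG, to the AP-1 site TGACTCA or to the cyclic AMP response element TGACGTCA; overlapping matches of the GC box were counted separately. Plat was not found in the table.
Plau: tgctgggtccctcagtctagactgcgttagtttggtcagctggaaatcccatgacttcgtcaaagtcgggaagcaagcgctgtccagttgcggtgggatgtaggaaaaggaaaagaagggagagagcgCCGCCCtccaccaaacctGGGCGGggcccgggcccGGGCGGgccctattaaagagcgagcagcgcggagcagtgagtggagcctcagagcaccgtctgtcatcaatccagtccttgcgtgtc
Plaur: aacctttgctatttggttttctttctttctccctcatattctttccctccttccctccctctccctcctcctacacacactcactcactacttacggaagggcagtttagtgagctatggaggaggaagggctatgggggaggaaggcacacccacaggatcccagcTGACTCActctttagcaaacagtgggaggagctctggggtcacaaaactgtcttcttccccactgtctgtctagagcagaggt
Serpine2: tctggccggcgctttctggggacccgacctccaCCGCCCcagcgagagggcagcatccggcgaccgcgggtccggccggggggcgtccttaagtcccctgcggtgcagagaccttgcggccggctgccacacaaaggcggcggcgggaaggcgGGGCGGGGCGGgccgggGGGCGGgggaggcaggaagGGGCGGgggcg
The Serpine2 window of 200 bases held 5 GC boxes and the Plau window of 250 bases held 3, and the Plaur window held no GC box and 1 AP-1 site. Of all 33469 promoter windows in the table, 24.2% held a GC box over 200 bases and 30.5% over 250 bases, and 4.05% held the AP-1 site over 250 bases. Unlike those of the 3 genes, these windows were not cut at the start of the annotated gene, so some may hold bases within it. The cyclic AMP response element was found in none of the 3 windows, against 1.59% of all windows of 250 bases and 0.944% of those of 200 bases. These matches describe the letters only.

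Serpine2 had lower signals on every PTX array than on any control array, and Plat, Plau and Plaur had overlapping groups. No gene of the 4 passed the test across all probe sets. Of the 5244 probe sets tested with limma, 0.0763% (4) had an adjusted p under 0.05, all of them higher with PTX. At an unadjusted p under 0.05, 4.61% were lower, and of the 4 genes Serpine2 alone was among them. The groups did not overlap, with PTX lower, for 10.6% of the tested probe sets, which is the share to set beside the 1 of 4 here. Of the 4 log2 changes 3 were negative, with a median of -0.10, where all tested probe sets had 52.9% negative and a median of -0.02. None of the 4 is read by a probe set with a name beginning with rc_, and the 2960 tested probe sets without that prefix had 65.2% negative and a median of -0.10.

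**Figure D1:**
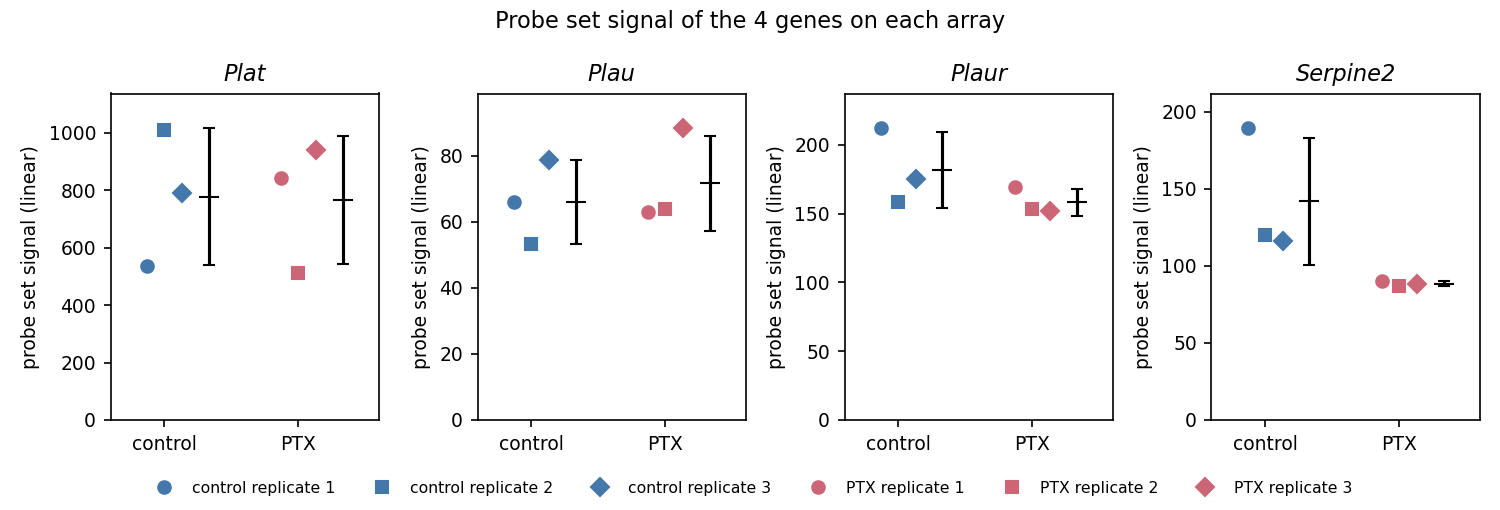
Probe set signal (linear scale, each panel with its own axis from 0) of Plat, Plau, Plaur and Serpine2 on 3 control and 3 PTX arrays. Points are arrays, with a marker shape for each replicate number, and the black bars are the mean and SD of 3 arrays; the PTX points of Serpine2 lie between 86.7 and 90.0, below all 3 control points, while the other panels overlap.

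Among the activators, Plat had signals of 534.6, 1008.8 and 788.7 on control arrays 1 to 3 and of 843.5, 512.8 and 940.8 on PTX arrays 1 to 3. Each group thus held 1 low array, control replicate 1 and PTX replicate 2, and the remaining arrays of both groups interleaved. The means were 777 ± 237 in the controls and 766 ± 224 with PTX (SD, n = 3 each). The log2 change of log2(signal + 16) was -0.02 ± 0.29 (SE; limma adjusted p = 0.982). Its 95% interval ran from -0.69 to 0.65, so that a change of up to 1.61-fold downwards or 1.57-fold upwards lies within it. Plat varied more between arrays of a group than most probe sets. Its coefficient of variation was 30.5% in the controls and 29.3% with PTX, and 83.9% of tested probe sets had a smaller SD within groups on the log2 scale.

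Plau, the urokinase gene, had low signals on all 6 arrays. They were 66.1, 53.3 and 78.8 in the controls and 63.0, 63.9 and 88.3 with PTX, close to the median signal of a whole array, which lay between 63.1 and 68.85. The highest and lowest arrays, PTX replicate 3 and control replicate 2, belonged to different groups, and the other 2 controls lay above the other 2 PTX arrays, so that the groups overlapped. The means were 66.1 ± 12.75 and 71.7 ± 14.35 (SD, n = 3 each), a log2 change of 0.10 ± 0.22 (SE; limma adjusted p = 0.855). The 95% interval, -0.42 to 0.61, reaches from 1.34-fold lower to 1.53-fold higher. Detection calls were not used here, so how much of a signal at this level is background is not known.

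Plaur, which encodes the urokinase receptor, had signals of 212.0, 158.4 and 175.2 in the controls and 169.6, 153.2 and 151.7 with PTX. The highest was control replicate 1, and control replicate 2 lay below PTX replicate 1. The means were 182 ± 27.4 and 158 ± 9.93 (SD, n = 3 each), a log2 change of -0.18 ± 0.16 (SE; limma adjusted p = 0.633). Its 95% interval of -0.55 to 0.20 was the narrowest of the 4, from 1.47-fold lower to 1.15-fold higher. Without control replicate 1 the log2 change was -0.07.

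Serpine2, the inhibitor, had signals of 189.1, 120.2 and 116.1 in the controls and 90.0, 86.7 and 88.2 with PTX. The 3 PTX arrays lay within 1.04-fold of each other, whereas the controls spread 1.63-fold, with control replicate 1 well above the other controls. The means were 142 ± 41.0 and 88.3 ± 1.65 (SD, n = 3 each). The PTX signals lay not far above the median signal of a whole array, which was between 63.1 and 68.85. How much of them is background is not known. The log2 change was -0.57 ± 0.21 (SE), or 1.48-fold lower, with an unadjusted p of 0.0285 and a limma adjusted p of 0.366, so the gene did not pass the test over all probe sets. The 95% interval of that change, not adjusted for the number of probe sets, was -1.06 to -0.08, from 2.08-fold lower to close to no change. The suffix _s_at in the name of this probe set marks, in the manufacturer's scheme, probes that can match more than 1 similar transcript.

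The Serpine2 difference was smaller without control replicate 1. This array stood apart from the others, with Pearson correlations of 0.952 to 0.960 with them over the log2 values of all probe sets, against up to 0.985 among the rest. Without it the Serpine2 log2 change was -0.36 (unadjusted p = 0.0757; limma adjusted p = 0.393), and the other 2 controls still lay above all PTX arrays. Without control replicate 2 or 3, or any PTX array, it lay between -0.68 and -0.56. Plat moved the other way when that array was left out, from -0.02 to -0.26 (limma adjusted p = 0.620), since its low control signal was on the same array. The part of control replicate 1 in the values of these genes beyond these figures was not tested.

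**Figure D2:**
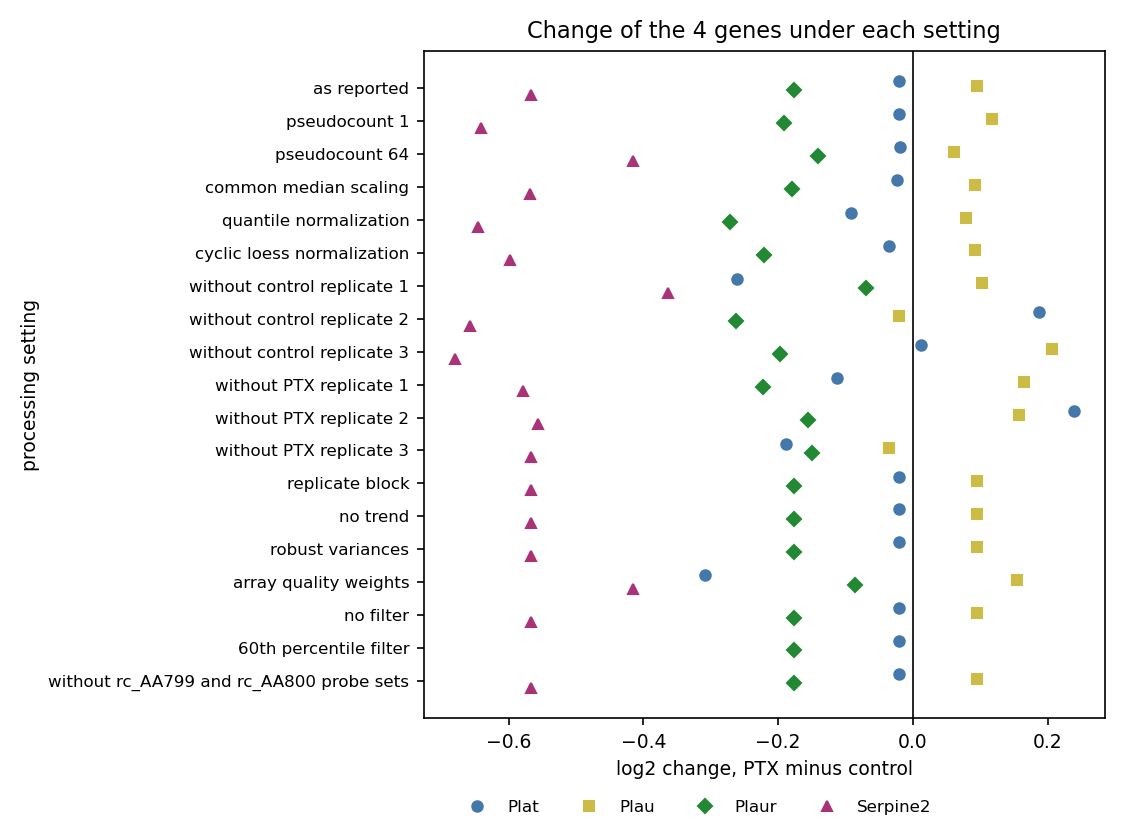
Log2 change, PTX minus control, of the 4 genes (one colour and marker shape each) as reported and under each of 18 other settings of the processing. Serpine2 stays between -0.68 and -0.36 and Plaur between -0.27 and -0.07, while Plat and Plau lie on both sides of 0; Plau and Serpine2 have no point under the 60th percentile filter, which leaves them out.

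Protease and inhibitor were also compared within arrays, as the difference of their log2(signal + 16). Such a difference shows unequal change and sets no transcript level against another. Plau minus Serpine2 was -1.32, -0.97 and -0.48 on control arrays 1 to 3 and -0.42, -0.36 and 0.0014 on PTX arrays 1 to 3. The groups did not overlap, although control replicate 3 and PTX replicate 1 lay close together. The mean was -0.92 ± 0.42 in the controls and -0.26 ± 0.23 with PTX (SD, n = 3 each), a shift of 0.66 that gave the smallest p this design allows (exact permutation test, two-sided, p = 0.1; adjusted over the 3 pairs compared, 0.3). Without control replicate 1 the shift was 0.47. The shift is the Plau change of 0.10 less the Serpine2 change of -0.57, so it mostly restates the Serpine2 difference and is not separate support.

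Plat minus Serpine2 was 1.43, 2.91 and 2.61 in the controls and 3.02, 2.36 and 3.20 with PTX. The groups overlapped, with control replicate 1 far below the rest, and the shift of 0.55 (exact permutation p = 0.4, adjusted 0.4) was 0.10 without that array. For the ligand and its receptor, Plau minus Plaur had a mean of -1.27 ± 0.24 in the controls and -1.0 ± 0.28 with PTX, overlapping groups and a shift of 0.27 (exact permutation p = 0.3, adjusted 0.4).

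**Figure D3:**
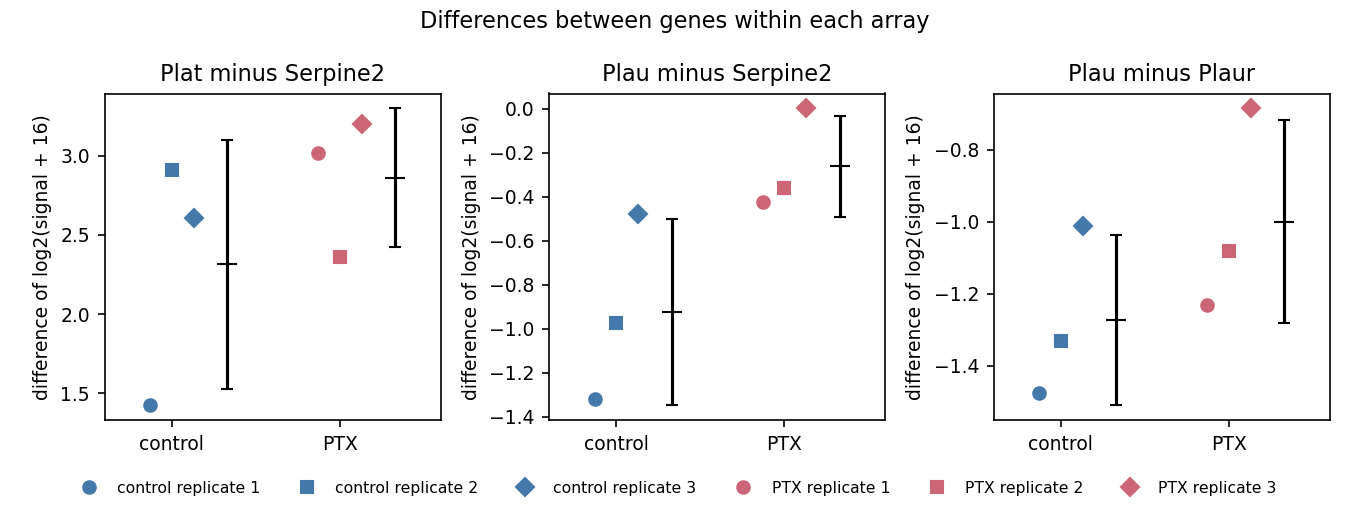
Difference of log2(signal + 16) between genes on the same array, for Plat minus Serpine2, Plau minus Serpine2 and Plau minus Plaur, on 3 control and 3 PTX arrays (points; black bars are mean and SD). Only in the middle panel are the groups apart, with control replicate 3 at -0.48 and PTX replicate 1 at -0.42 nearest to each other.

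Tested serpins other than Serpine2 had log2 changes of both signs, more of them positive, and none passed the test. Serpins are a family of protease inhibitors and related proteins, and 15 others from a list of 23 were on the array, of which 9 lay under the filter on low signals. Of the 6 tested, 4 were positive and 2 negative with a median log2 change of 0.33, where 52.9% of all tested probe sets were negative. The 2 negative ones were Serpind1 (-0.57, as for Serpine2) and Serpina3m (-0.29). Serpind1 had means of 56.1 in the controls and 32.7 with PTX, the latter under the filter, so it was tested only through its controls. Among the 6, 0 passed at an adjusted p under 0.05 with limma. At an unadjusted p under 0.05 there were 3, all higher, where 7.97% of all tested probe sets were higher at that level. The groups did not overlap, with PTX higher, for 2 of 6, where 12% of all tested probe sets were so. Both are read by probe sets with the rc_ prefix, of which 20.1% had this pattern, against 5.84% of those without it. Without the rc_AA799 and rc_AA800 probe sets the median of these serpins was 0.152. The difference between Serpine2 and these serpins was not itself tested.

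Serpinb9, an inhibitor of granzyme B, had 241, 346 and 644 in the controls and 669, 683 and 806 with PTX (log2 change 0.90, limma adjusted p = 0.340). Its PTX arrays all lay above the controls, although control replicate 3 came close to them. The log2 change was 0.59 without control replicate 1 and 1.27 without control replicate 3. Serpina3n, a secreted acute phase serpin, had 331, 195 and 215 in the controls and 327, 360 and 356 with PTX (log2 change 0.50, limma adjusted p = 0.383). Here control replicate 1 lay within the PTX range, and without that array the log2 change was 0.72 with an adjusted p of 0.0244. Serping1, the inhibitor of the first complement proteases, had a log2 change of 1.30 (limma adjusted p = 0.364), or 0.65 without control replicate 1 (adjusted p = 0.0220). It is read by a probe set named rc_AA800, a class that had low signals on control replicate 1. The 375 tested probe sets of this class had a median log2 change of 0.56, and still 0.27 without that array, so leaving it out does not remove the shift of the class. Serpinh1, a collagen chaperone of the serpin family with no inhibitory role, was the brightest of the list at 4883 ± 2137 in the controls and 4998 ± 273 with PTX, and its log2 change of 0.15 became -0.29 without control replicate 1.

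**Figure D4:**
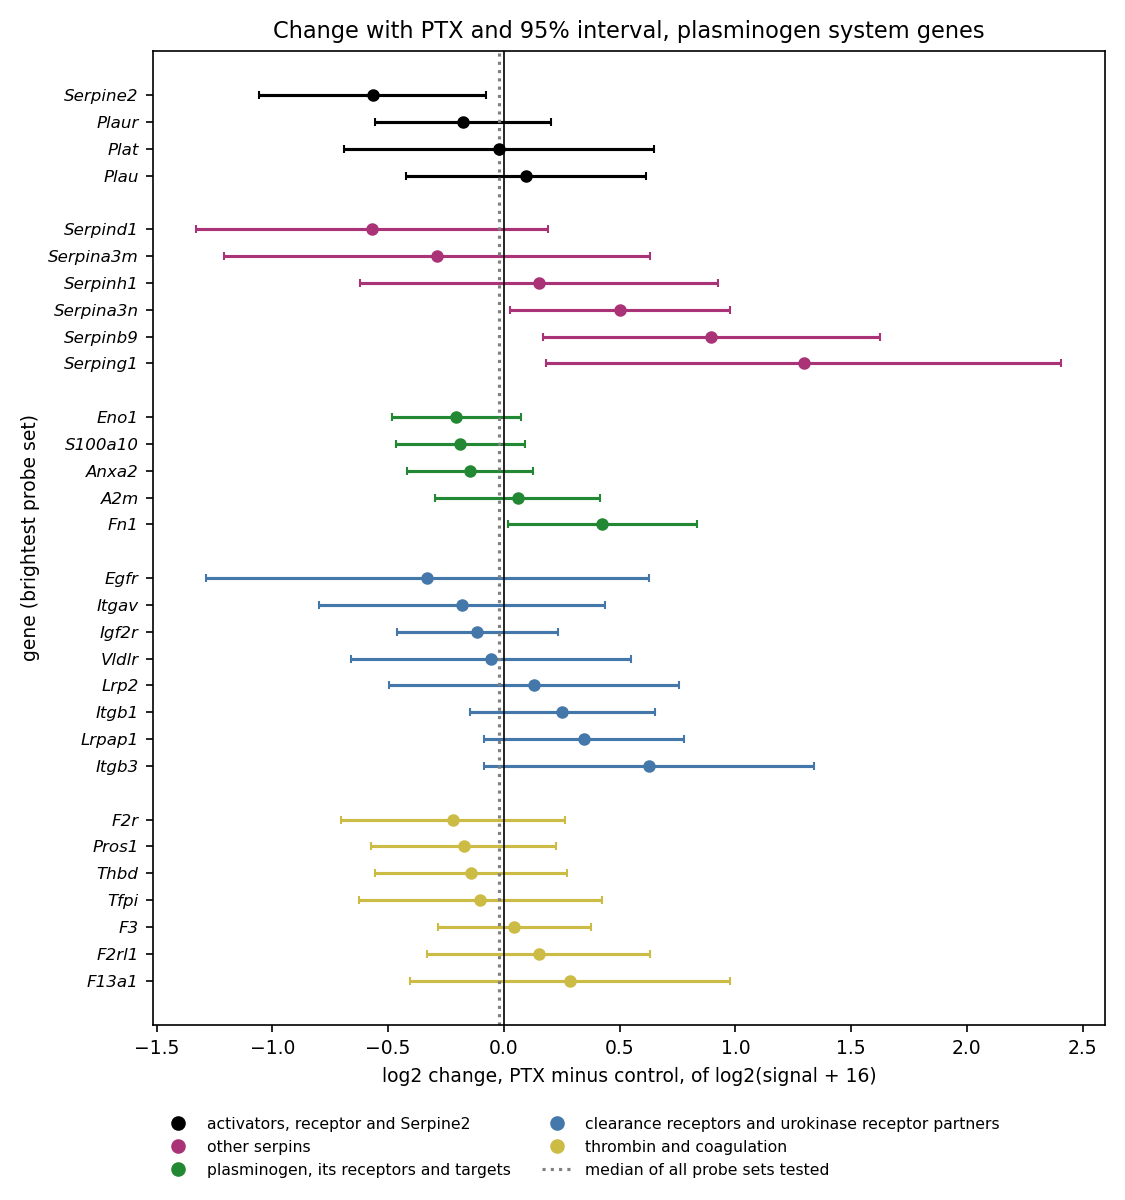
Log2 change, PTX minus control, with its 95% limma interval (horizontal bar, not adjusted for multiple tests) for the 4 genes and the tested genes of 4 related lists, each on its brightest probe set. The interval of Serpine2 lies below 0, those of Serping1, Serpinb9, Serpina3n and Fn1 lie above 0, and all others include 0.

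Plasminogen itself was near the bottom of the signal range. Plg had mean signals of 6.30 in the controls and 4.80 with PTX, and the fibrinogen chain genes Fga, Fgb and Fgg were under the filter too, which left out mean signals below about 33.3. Of 12 genes on the array for plasminogen, its receptors and its targets, 5 were tested. Of these, 2 were positive and 3 negative, with a median of -0.15, where 52.9% of all tested probe sets were negative. There were 0 calls at an adjusted p under 0.05, and without adjustment 1 higher and 0 lower. Over all tested probe sets, that cut-off without adjustment called 7.97% as higher and 4.61% as lower. S100a10, which presents plasminogen at the cell surface together with annexin A2, had 1520, 1729 and 1740 in the controls and 1486, 1419 and 1458 with PTX. All its PTX arrays were lower, by small amounts (log2 change -0.19, limma adjusted p = 0.502). Eno1, a glycolytic enzyme that can also bind plasminogen, is read by 2 tested probe sets of nearly equal brightness. The probe set used for the list, higher by its mean log2 signal, gave -0.21 with overlapping groups (adjusted p = 0.473). The other gave -0.46 with all PTX arrays below the controls (unadjusted p = 0.0125, adjusted p = 0.303), and with it the list would count 1 lower. Fn1, which encodes the matrix glycoprotein fibronectin, had 6362 ± 1529 and 8422 ± 777 (log2 change 0.43, limma adjusted p = 0.388), and its other 3 tested probe sets had -0.81, 0.13 and 0.09.

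Receptors that clear inhibitor complexes and partners of the urokinase receptor gave 8 tested genes of 10 on the array, with 4 positive, 4 negative and a median of 0.04. Egfr (means of 47.2 in the controls and 31.6 with PTX) and Lrp2 (32.5 and 36.8) had a group mean under the filter, as had Itgb3. These genes were tested only through their other group, so the counts and the median are a description. None passed at an adjusted p under 0.05 with limma, and 0 had an unadjusted p under 0.05. Among all tested probe sets the shares were 0.0763% and 12.6%, and 52.9% were negative. Itgb3, an integrin subunit that pairs with the alpha v chain, had 12.3, 37.6 and 32.8 in the controls and 44.2, 50.2 and 52.3 with PTX (log2 change 0.63, limma adjusted p = 0.438). Its control mean of 27.6 lay under the filter and its PTX mean of 48.9 above it, so that it was tested only through the group where it is high, and its values are given as a description. Without control replicate 1 the log2 change was 0.34. Lrpap1, the chaperone of LDL receptor family members, showed 0.35 for its brightest probe set (adjusted p = 0.450) and between -0.16 and 0.54 for the others. Itgb1, the brightest of these genes at 6378 ± 1559 and 7469 ± 402, had 0.25 (adjusted p = 0.528), or 0.15 without control replicate 1 and 0.45 without control replicate 3.

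Thrombin, which Serpine2 inhibits, acts on cells through protease-activated receptors. Of 13 genes of thrombin signalling and coagulation on the array 7 were tested, with 3 positive, 4 negative and a median of -0.10. There were 0 calls at an adjusted or an unadjusted p under 0.05 with limma. Over all tested probe sets 52.9% were negative, 0.0763% had an adjusted p under 0.05 and 12.6% an unadjusted p under 0.05. F2r, the thrombin receptor PAR1, had 2268, 2427 and 3058 in the controls and 2537, 1625 and 2575 with PTX, with overlapping groups and a log2 change of -0.22 (adjusted p = 0.640), or -0.0038 without PTX replicate 2. Pros1, the anticoagulant protein S, had -0.17 (adjusted p = 0.652), or -0.02 without control replicate 1. F13a1, the factor XIII subunit that cross-links fibrin, had 0.29 (adjusted p = 0.670) at signals of 43.1 to 99.6, or 0.58 without control replicate 1 and 0.10 without control replicate 3.

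The array also held other probe sets that followed each gene across the 6 arrays. Likeness was Pearson's r of log2(signal + 16) over the 6 arrays with each of 4380 tested probe sets of other genes, and the 3 highest are given as a description, with no test. For Serpine2 they were Homer1 (0.998), Rbpms (0.994) and Fdps (0.993). Their log2 changes were -0.52, -0.24 and -0.52, and the groups did not overlap for any of the 3. Such a pattern follows from choosing them by likeness to Serpine2, whose own groups did not overlap, on the same arrays. Of all tested probe sets 10.6% were lower without overlap. The r values and log2 changes belong to single probe sets, and several others of the same genes differed. The other tested probe set of Rbpms was alike, with r of 0.956 with Serpine2 and a log2 change of -0.38. The other 4 tested probe sets of Homer1 had r between -0.813 and 0.656 with Serpine2 and log2 changes between -0.42 and 0.51, and those of Fdps had r of 0.976 and -0.776. For Plaur they were Lrfn4 (0.995), Prkaca (0.995) and Trib3 (0.989), with log2 changes from -0.89 to -0.34 and overlapping groups. A second probe set of each had r of 0.764, 0.161 and 0.729 with Plaur. Plat was followed by Rasa1 (0.976), Stmn4 (0.959) and Tbk1 (0.954), and Plau by Snrpb (0.968), Scn1a (0.964) and Cx3cl1 (0.964), with log2 changes between -0.0013 and 0.27. The other 2 tested probe sets of Cx3cl1 had r of 0.331 and 0.397 with Plau. Values over 0.9 were common for Serpine2, with 275 probe sets, and for Plaur, with 144, against 23 for Plat and 16 for Plau. The genes with many like patterns are those that were highest on control replicate 1, and all points share the 6 arrays. Without that array r was 0.971 to 0.992 for the 3 probe sets given for Serpine2.

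Markers of other cell types were read on the same arrays, and in a bulk sample fewer cells of a type and less RNA per cell cannot be told apart. All 12 fibroblast markers on the array were tested (median log2 change -0.07), with 6 positive and 6 negative and 5 at an unadjusted p under 0.05, where 12.6% of all tested probe sets were. Their summed signal overlapped between the groups, at 79360 to 99990 and 77600 to 83650, with Col3a1 brightest at 20222 ± 1932 in the controls and 17300.5 ± 1486 with PTX. Of 16 cardiomyocyte markers 14 were tested, with 11 negative and a median of -0.18, where 52.9% of all tested probe sets were negative. Of the 14, 1 had an unadjusted limma p under 0.05, and without control replicate 1 the median was -0.09. Myl2 was the brightest at 52335 ± 15205 and 42453 ± 4037 (log2 change -0.27). The summed signal of the cardiomyocyte list was 307100 to 385900 in the controls, highest on control replicate 1, and 267900 to 300900 with PTX. Bright cardiomyocyte markers were thus present in both groups, so the signals of Plat, Plau, Plaur and Serpine2 cannot be assigned to fibroblasts alone. The Schwann cell list, of which 2 of 5 markers were tested, summed to 3680 to 4066 and 3417 to 3449, with Pmp22 brightest (log2 change -0.18). S100b, Sox10 and Mbp were under the filter. Pmp22 alone, with means of 3541 in the controls and 3122 with PTX, made up most of this sum, which is thus no measure of Schwann cells. The 6 smooth muscle markers, all tested, summed to 43600 to 55880 in the controls, again highest on control replicate 1, and 40450 to 42350 with PTX; 3 of the 6 were negative, and the brightest, Myl9, had -0.37. These 3 sums, like the Serpine2 signal, were lower on every PTX array than on any control array. Their part in the Serpine2 values was not tested. A sum is weighted to its brightest genes, and no share over all probe sets was computed for such sums. The macrophage and leukocyte list went the other way, at 4375 to 4685 in the controls and 5348 to 6510 with PTX, higher on every PTX array. It had 7 of 11 markers tested. Its brightest gene was Lyz2 (log2 change 0.52), and the pan-leukocyte gene Ptprc and Csf1r were under the filter. The endothelial list, for a cell type known to make tPA, had 5 of 8 markers tested and summed to 520 to 812 and 539 to 600, with Pecam1 and Vwf under the filter. The mesothelial list had 3 of 4 markers tested (median log2 change 0.17) and summed to 271 to 404 and 285 to 338. Its brightest gene was Krt18 (log2 change -0.34).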

How the data were processed

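The authors processed the scans with GCOS, Affymetrix's own program, per the submitters' processing notes. The program's version and its target for scaling are not given in these notes, and detection calls were not used here. The deposited table holds linear intensities, 1 per probe set and array, and their 2% trimmed means lay between 493 and 495, so no further scaling was applied. Of 8740 probe sets 7006 have 1 gene symbol, and 6985 of these were updated through RefSeq (GRCr8, names only). Intensities were analysed as log2(signal + 16), so folds understate changes of low signals. Probe sets under the 40th percentile of the mean were left out. The remaining 5244 were tested with limma 3.58.1 in R 4.3.3 (lmFit, eBayes with trend), two-sided, with Benjamini-Hochberg adjustment over all of them. The procedure was tested on simulated data. Lists were read by each gene's brightest probe set.

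The 4 genes, the lists and the settings were chosen with earlier results of these data known. The genes named are all 4, and from each list the 3 with the smallest p and the brightest. The 3 most alike per gene and the brightest markers of cell types were also named. Ptprc, Csf1r, Pecam1, Vwf, S100b, Sox10, Mbp, Plg, the fibrinogen genes, Serpind1, Serpina3m, Egfr and Lrp2 were named after their values were seen. Other settings tried were other pseudocounts, filters, scalings, variance models and array weights, the replicate number as a block, removal of a probe set class and each array left out. Same-numbered arrays did not deviate together (correlations of -0.093, -0.105 and -0.008), so the numbers were not treated as pairs.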

Additional observations from a re-analysis of the deposited data

How the results depend on the processing

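None of the 4 genes passed an adjusted p of 0.05 under any of the 18 settings that could test it. Serpine2 stayed negative in all 17 that tested it (-0.68 to -0.36, limma adjusted p of 0.213 to 0.682) and Plaur in all 18 (-0.27 to -0.07). Plat was negative in 15 of 18 and Plau positive in 15 of 17, and with single arrays left out Plat ranged from -0.26 to 0.24 and Plau from -0.04 to 0.21. Plat was positive without control replicate 2 (0.187), control replicate 3 (0.0123) or PTX replicate 2 (0.239), and Plau negative without control replicate 2 (-0.0202) or PTX replicate 3 (-0.035). With the replicate number as a block Serpine2 had the same log2 change of -0.567 with an adjusted p of 0.459, and 0 probe sets of the whole array passed. The count over all probe sets was 4 as reported, 2 with a pseudocount of 1 or with quantile normalization, 7 with a pseudocount of 64, 0 without a trend, 9 with robust variances, 81 with array quality weights, 8 without the rc_AA799 and rc_AA800 probe sets, and 0 to 115 with single arrays left out, 115 being without control replicate 1 and 30 without control replicate 3. The shifts within arrays stayed positive in all 11 settings, at 0.465 to 0.886 for Plau minus Serpine2, 0.102 to 0.845 for Plat minus Serpine2 and 0.115 to 0.403 for Plau minus Plaur. Serpina3n also passed with array quality weights (adjusted p = 0.0463), where Serpinh1 was -0.201; with single arrays left out Serpinh1 ranged from -0.29 to 0.397. The median of the other serpins was 0.0739 with no filter and 0.699 with a 60th percentile filter. That of plasminogen, its receptors and targets was -0.0316 with cyclic loess and -0.0417 with no filter. That of clearance receptors was -0.0852 with no filter and -0.0314 to 0.163 with single arrays left out, and that of coagulation genes was -0.196 with quantile normalization and -0.116 to 0.0514 with single arrays left out. Myl2 was at 0.041 with quantile normalization, and Edn1, the brightest endothelial marker, at 0.135 without control replicate 2 (-0.81 to 0.135 over single arrays left out). The causes of these shifts were not tested. The number of arrays limits the precision, and Plau and Itgb3 lie at low signals. Serpine2 too was left out by the 60th percentile filter.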
